A study of Caenorhabditis elegans with 2 samples.

Results

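The genes described here encode the proteins of the mitochondrial ribosome and the aminoacyl-tRNA synthetases of Caenorhabditis elegans, and the measurement is the binding of the transcription factor SOX-4 near their 5' ends in late embryos. Members were chosen by symbol among the protein-coding genes of Ensembl release 115 on the assembly WBcel235, which is ce11. Symbols of mrpl- or mrps- and a number gave 70 mitochondrial ribosomal proteins, with 41 mrpl- genes, named for the large subunit, and 29 mrps- genes, named for the small. The split is by symbol alone, and the RefSeq product name of mrps-18C is that of a large subunit protein, uL3m. Symbols of 1 letter, ars- and 1 or 2 gave 31 synthetases, of which 11 were taken as mitochondrial and 20 as cytosolic. These 101 genes stood among 19973 protein-coding genes on the nuclear chromosomes.

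SOX-4 was located by chromatin immunoprecipitation and sequencing (ChIP-seq) with an antibody to GFP in 2 biological replicates of 1 group. All libraries came from strain OP517, unc-119(tm4063) III; wgIs517, whose transgene carries SOX-4 joined at its C terminus to GFP and FLAG. Whole embryos of both sexes, pooled, were taken 4 hours after synchronization by egg bleaching, and chromatin was sheared by sonication. Binding in a few cells and binding in many cannot be told apart in such material, and the tagged protein came from a transgene. Control alignments entered the peak calling, and no embryos without the tag were analysed here.

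Mitochondria keep their own ribosomes, which make the few subunits of the respiratory chain that mitochondrial DNA still encodes. Nearly all other parts of that machinery are encoded in the nucleus, made in the cytosol and imported. Aminoacyl-tRNA synthetases load each tRNA with its amino acid, and many amino acids have 1 enzyme for the cytosol and another for mitochondria. SOX proteins bind DNA through a high mobility group domain. In C. elegans, knockdown of the small subunit gene mrps-5 is known for extending lifespan through a mitochondrial stress response.

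The sequences below are the 121 bases around the pooled summit of 8 regions, on the strand of the gene, from the RefSeq copy of WBcel235 (ce11). They are shown because they belong to the 4 members in the thresholded list and to 4 of the 5 members that follow in pooled signal. The other of those 5, mrpl-15, is named only. Capitals mark the string TTGCNA, the string TGCAAG and the string GCGC on either strand, where overlapping matches run together. Those letters were read off these sequences after they were seen, among 8 strings looked at.
ears-2: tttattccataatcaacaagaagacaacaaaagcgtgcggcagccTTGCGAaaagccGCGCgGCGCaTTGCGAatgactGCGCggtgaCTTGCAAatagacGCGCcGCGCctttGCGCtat
mrpl-39: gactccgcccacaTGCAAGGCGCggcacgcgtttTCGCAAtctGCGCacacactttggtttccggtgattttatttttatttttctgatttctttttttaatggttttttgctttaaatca
tars-1: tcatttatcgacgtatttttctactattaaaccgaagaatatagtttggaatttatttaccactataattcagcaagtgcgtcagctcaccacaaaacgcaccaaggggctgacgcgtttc
mrps-34: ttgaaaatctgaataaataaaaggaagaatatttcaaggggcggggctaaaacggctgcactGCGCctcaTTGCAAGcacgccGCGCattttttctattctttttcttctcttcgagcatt
mrpl-45: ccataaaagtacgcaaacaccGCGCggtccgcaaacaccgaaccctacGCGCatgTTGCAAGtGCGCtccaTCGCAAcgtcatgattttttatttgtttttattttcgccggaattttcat
mrpl-12: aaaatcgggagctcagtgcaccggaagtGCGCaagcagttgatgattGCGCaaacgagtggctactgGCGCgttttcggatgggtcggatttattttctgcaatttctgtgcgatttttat
mrps-7: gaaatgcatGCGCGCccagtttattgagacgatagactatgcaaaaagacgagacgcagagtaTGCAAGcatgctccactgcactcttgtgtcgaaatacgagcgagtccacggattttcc
mrps-25: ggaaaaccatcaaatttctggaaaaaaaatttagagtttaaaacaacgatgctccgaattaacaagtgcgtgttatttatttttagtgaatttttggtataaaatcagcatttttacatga
In ce11 coordinates they lie at chrIV:390441-390561 (minus strand) for ears-2, chrV:1821436-1821556 (plus strand) for mrpl-39 and chrII:11694642-11694762 (minus strand) for tars-1. The others lie at chrIII:4542515-4542635 (minus strand) for mrps-34, chrIII:1202284-1202404 (minus strand) for mrpl-45, chrIII:10707193-10707313 (plus strand) for mrpl-12, chrIV:14767825-14767945 (minus strand) for mrps-7 and chrIV:1056458-1056578 (plus strand) for mrps-25. In these windows ears-2 held 6 matches of GCGC and 3 of TTGCNA, mrpl-45 held 3 and 2, and mrpl-39 and mrps-34 each held 2 and 1. The window of mrpl-12 held 3 matches of GCGC and none of TTGCNA, and that of mrps-7 held 2 and none. The tars-1 and mrps-25 windows held none of the 3 strings. Within 50 bp of its summit, mrpl-15 held GCGC but neither of the others.

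Each deposited list is a set of regions with a signal value, which is the authors' score of each region's strength above the control alignment. The values are not scaled between libraries, so ranks within a list (1 is the strongest) are given beside them. The pooled list and each replicate's list hold 30000 regions, background included. The pooled signal runs from 36.3, with a median of 51.1, up to 1365. The thresholded list, which the authors made by the irreproducible discovery rate, a measure of agreement between replicates, holds 668 regions and begins at a signal of 130. For each gene the strongest region with its summit within 1 kb of the 5' end was taken. No read counts are in these lists, so depth and the sampling error of a value are unknown. No region lay within 1 kb of the 5' end of sox-4 itself, and the region at unc-119, the gene of the strain's mutation, had a pooled signal of 64.1 at rank 7753.

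A single member, ears-2, stood among the strongest SOX-4 regions of the genome, and few others had more than weak signal. Members had a thresholded peak in 4 of 101 cases (3.96%), against 2.35% of all protein-coding genes. These were the mitochondrial glutamyl-tRNA synthetase ears-2, the large subunit protein mrpl-39, the cytosolic threonyl-tRNA synthetase tars-1 and the small subunit protein mrps-34. With counts this small, 1 gene is 0.99% of the members, so the count gives no ground to set the 101 genes apart from the rest. Genes are not replicates of a condition, and with 1 group the shares are descriptions without a test.

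Any pooled region, however weak, lay near 75 of the 101 members (74.3%), against 44.2% of all protein-coding genes. The level of those regions was ordinary. The median pooled signal was 56.7 in the members with a region and 56.7 in all protein-coding genes with one, and the quartiles ran from 45.9 to 71.4 in members and from 45.7 to 73.8 in all genes. Only 9 members (8.91%) were among the strongest 3000 regions of the pooled list, against 7.78% of all protein-coding genes. A larger share of members than of all genes had some listed region, and the signal of those regions had the same median. In related lists the share was 88.5% of cytosolic ribosomal proteins, 78.3% of respiratory chain and ATP synthase genes and 74.2% of cytosolic translation factors, so the members' share does not stand above these.

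Both families had many weak regions and few strong ones. Mitochondrial ribosomal proteins had a pooled region in 54 of 70 genes (77.1%) and a thresholded peak in 2 (2.86%). Synthetases had a region in 21 of 31 genes (67.7%) and a thresholded peak in 2 (6.45%). A single gene is 1.43% of the ribosomal proteins and 3.23% of the synthetases, so the shares of thresholded peaks differ by little more than 1 synthetase. The median signal was 58.8 in ribosomal proteins and 52.6 in synthetases, and the ranges between quartiles overlapped, at 46.3 to 71.8 and 42.9 to 68.4. By symbol, mrpl- genes had a region in 33 of 41 cases with a median of 62.0, and mrps- genes, mrps-18C among them, in 21 of 29 cases with a median of 50.7.

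**Figure D1:**
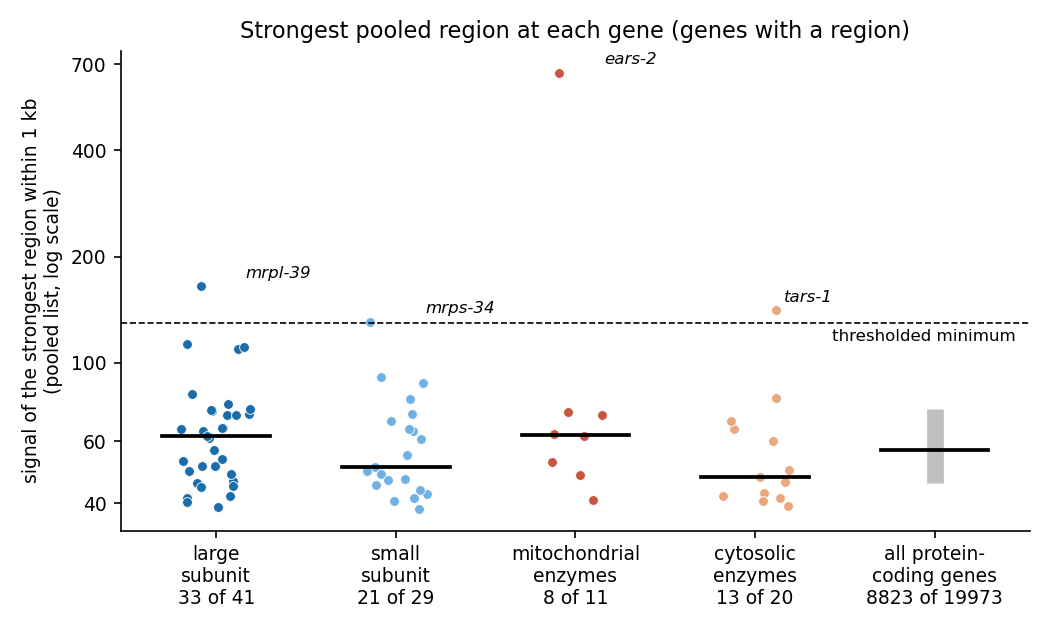
Pooled signal (log scale) of the strongest region within 1 kb of the 5' end, 1 point per gene with a region, by class (subunit as in the symbol), with the median as a bar. The grey bar spans the quartiles of all protein-coding genes and the dashed line is the thresholded minimum of 130; ears-2 at 663 stands alone above the other points, and 3 more genes lie above the line.

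The strongest member was ears-2, which encodes the enzyme that loads glutamate in mitochondria and is named a nondiscriminating glutamyl-tRNA synthetase in RefSeq. Its region (chrIV:390357-390627) had a signal of 663 in the pooled list, 372 in replicate 1 and 294 in replicate 2. The ranks were 14, 15 and 15 in those lists, so both replicates placed it equally high. The pooled summit lay 33 bp upstream of the 5' end, between protein-coding genes. The divergent gene uncp-18 starts 92 bp away, and the summit of replicate 1 lay nearer to it, so the region cannot be given to 1 of the 2 genes by distance.

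Next came mrpl-39, a protein of the large subunit, at chrV:1821288-1821703. Its signal was 165 in the pooled list, 103 in replicate 1 and 66.2 in replicate 2. The ranks of 373, 327 and 601 all fell within the strongest 668. The summit lay 83 bp upstream, in the 256 bp that separate mrpl-39 from the divergent gene gly-7, a glycosyltransferase gene. In replicate 2 the nearest 5' end was that of gly-7.

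The region of tars-1, the gene of the enzyme that loads threonine in the cytosol, lay inside the gene at chrII:11694494-11694909. Its signal was 141 in the pooled list, 87.6 in replicate 1 and 52.1 in replicate 2. It ranked 525 and 463 in the first 2 of these lists but 1319 in replicate 2. The summit was at the same base in all 3, 955 bp downstream of the 5' end, in an intron of tars-1 that also lies within kel-1. It is therefore far from the start of tars-1, and a window of 500 bp leaves it out.

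The small subunit gene mrps-34 had the fourth region, at chrIII:4542367-4542782. Its signal was 131 in the pooled list, 66.4 in replicate 1 and 66.3 in replicate 2. At rank 658 it stood only just inside the thresholded list, and its rank was 1055 in replicate 1 and 599 in replicate 2. The summit lay 123 bp upstream, within the 429 bp to the divergent gene cisd-3.1. All 4 genes had a divergent neighbour, although that of tars-1 starts 514 bp upstream of the 5' end and the summit lay 955 bp downstream. None had a tRNA, snoRNA, snRNA or rRNA gene within 200 bp of the summit. The same held for 271 of the 359 thresholded peaks near a protein-coding 5' end.

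The members nearest below the threshold were 3 large subunit genes. mrpl-15 had a signal of 113 in the pooled list, 42.5 in replicate 1 and 68.8 in replicate 2. mrpl-45 had 111, 57.0 and 56.2 in the same lists, and mrpl-12, named for the ribosome's stalk protein, had 110, 43.9 and 64.1. The replicates differed on mrpl-15 and mrpl-12, which ranked 6488 and 5723 in replicate 1 but 540 and 660 in replicate 2. They were closer for mrpl-45, at rank 1985 in replicate 1 and 1002 in replicate 2. The regions of mrpl-45 and mrpl-12 lay nearer to other 5' ends, those of Y119D3B.12 and Y39A1A.22.

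The rest of the 12 strongest ribosomal protein genes had pooled signals between 73.6 and 91.3. mrps-7, a protein in the head of the small subunit, led them with 91.3 in the pooled list, 33.0 in replicate 1 and 54.2 in replicate 2. mrps-25 followed with 87.4, 74.9 and 37.1. At mrps-7 the same region ranked 14645 in replicate 1 and 1149 in replicate 2. At mrps-25 the pooled region ranked 689 in replicate 1, and the strongest region in replicate 2, at rank 4840, was another one, at -999 bp and not overlapping it. The others were mrpl-19 at 81.7, mrps-35 at 78.9, mrpl-55 at 76.2, mrpl-40 at 74.3 and mrpl-28 at 73.6 in the pooled list. Of these 5, mrpl-19 ranked 2366 in replicate 1 and 21096 in replicate 2, and mrps-35 ranked 10865 and 1457.

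Among synthetases, wars-1, which loads tryptophan in the cytosol, came after ears-2 and tars-1 with 79.6 in the pooled list, 67.1 in replicate 1 and 24.8 in replicate 2. The pooled and replicate 1 summits lay in its own intron, 878 bp downstream of the 5' end. The replicate 2 value belongs to another region, at -16 bp, that does not overlap the pooled one. The mitochondrial leucine enzyme lars-2 followed with 72.5, 48.4 and 19.0 in the same lists, at a summit in its own coding sequence 661 bp from the 5' end. At lars-2 the same region ranked 3976 in replicate 1 and 27314 in replicate 2. The remaining synthetases among the 12 strongest had pooled signals of 71.3 for aars-1, 68.4 for mars-1, 65.1 for kars-1, 62.9 for pars-2, 62.3 for nars-2, 59.95 for aars-2, 52.6 for rars-2 and 49.6 for rars-1. In replicate 2, mars-1, rars-2 and rars-1 had no region within 1 kb, although mars-1 ranked 1978 in replicate 1. Of the 12, only ears-2 and tars-1 were past the threshold.

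In the replicates' own lists, 73 members had a region in replicate 1 and 62 in replicate 2, and 50 had one in both (49.5%), against 31.3% of all protein-coding genes. Taking the strongest 668 regions of each list, 4 members (3.96%) were reached in replicate 1, against 2.28% of all protein-coding genes. In replicate 2 it was 6 members (5.94%), against 2.34%. These counts include mrpl-23 in replicate 1 and mrps-28 in replicate 2, whose strong pooled summits lay just outside the window near snoRNA genes. Only ears-2 and mrpl-39 were among the strongest 668 in both. Among the strongest 3000 of both lists were 5 members (ears-2, mrpl-39, tars-1, mrps-34 and mrpl-45). Across the 50 members with a region in both, Spearman's rho between the replicates' signals was 0.27, and 0.23 without ears-2. Across all 6245 protein-coding genes with a region in both it was 0.44. These points share their libraries, and the value is a description. The strongest regions of the lists need not be the same region. Of the 75 members with a pooled region, replicate 1's region overlapped it at 59, replicate 2's at 41 and both at 30, so some of the 50 pairs set different regions of a gene side by side. The families differed more in replicate 2, where 48 of 70 ribosomal protein genes (68.6%) and 14 of 31 synthetases (45.2%) had a region, against 45.2% of all protein-coding genes. In replicate 1 the counts were 52 of 70 and 21 of 31 (67.7%), against 46.0% of all protein-coding genes.

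**Figure D2:**
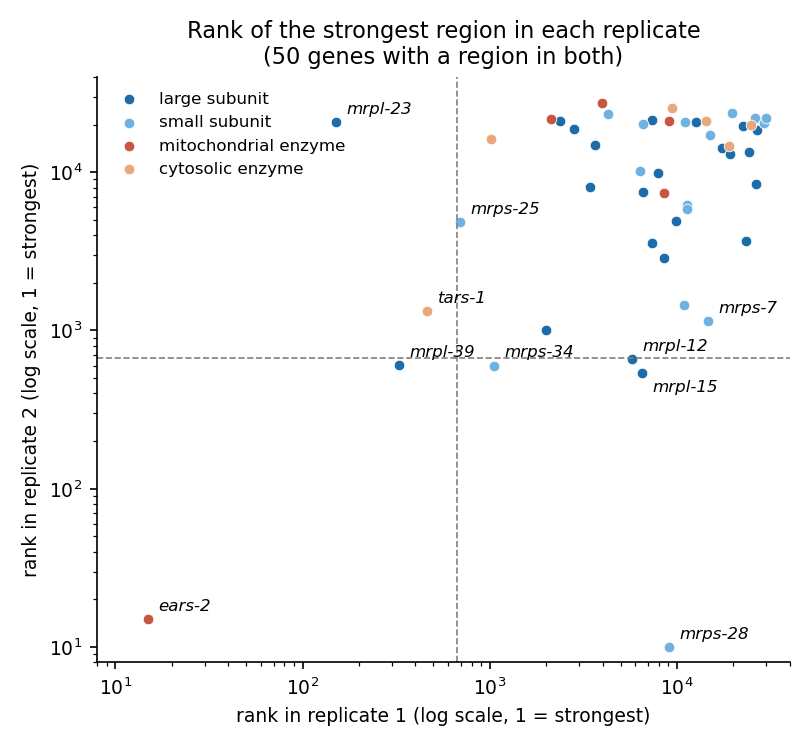
Rank of each gene's strongest region in replicate 1 (horizontal) and replicate 2 (vertical), both on log scales with 1 the strongest, for the 50 members with a region in both; dashed lines mark rank 668. ears-2 is at rank 15 in both, mrpl-39 is inside both lines, and most points lie in the weak corner at the upper right.

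A pair of ribosomal protein genes ranked very high in 1 replicate and not in the other, with the strong summit at the edge of the window. mrpl-23 had rank 151 in replicate 1 with its summit at -935 bp from the 5' end, and mrps-28 had rank 10 in replicate 2 with its summit at -996 bp. In the pooled list the strong summits lay at -1010 bp and -1007 bp, just outside 1 kb, with signals of 264 and 669. Both regions lie within 200 bp of snoRNA genes, T08B2.13 and Y43F8C.22. Inside the window, the pooled signals were 61.4 for mrpl-23 and 60.9 for mrps-28.

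No region was listed within 1 kb of 26 members in the pooled list, and none in any of the 3 lists for 15 members (14.9%), against 38.8% of all protein-coding genes. Of the 15, 9 were ribosomal protein genes, among them mrps-5, and 6 were synthetases. The synthetases were the cytosolic enzymes ears-1 (glutamate), fars-1 (phenylalanine), hars-1 (histidine), iars-1 (isoleucine) and sars-1 (serine), and the mitochondrial aspartate enzyme dars-2. The lists stop at 30000 regions, so a gene with none has signal below their floors and not a measured 0.

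For 11 amino acids both a mitochondrial and a cytosolic synthetase were among the members. In the pooled list the mitochondrial gene had the larger signal in 8 pairs, the cytosolic gene in 1, and neither gene had a region in 2, where a gene with no region counts as the lower. In replicate 1 the split was 8 mitochondrial to 2 cytosolic, and in replicate 2 it was 5 to 2. The mitochondrial gene was the larger in all 3 lists for 4 amino acids, those of ears-2, lars-2, nars-2 and pars-2, although the replicate 1 regions of pars-2 and pars-1 did not overlap their pooled regions. Most of these differences were between weak regions, and only ears-2 was past the threshold.

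The largest contrast was for glutamate, with 663 at ears-2 and no region in any list at the cytosolic ears-1. Leucine had 72.5 at lars-2 and 41.6 at lars-1, asparagine 62.3 at nars-2 and 39.2 at nars-1, and proline 62.9 at pars-2 and 42.9 at pars-1. Alanine had 71.3 at the mitochondrial aars-1 and 59.95 at the cytosolic aars-2, both placed by product name. Their numbers run the other way from the rest, of which 7 mitochondrial and 10 cytosolic enzymes were placed by that number alone. In replicate 2 the alanine order turned, with 21.6 at aars-1, from a region that does not overlap the pooled one, and 22.1 at aars-2. For arginine the values were close, at 52.6 for rars-2 and 49.6 for rars-1, and in replicate 1 the order turned to 34.5 for rars-2 and 44.0 for rars-1. Phenylalanine and serine had weak regions at the mitochondrial fars-2 (48.1) and sars-2 (40.8) and none at fars-1 and sars-1. Tyrosine was the exception in the pooled list, with none at the mitochondrial yars-2 and 42.01 at yars-1, where the summit lay in an intron of Y105E8A.20. In replicate 1 the tyrosine order turned, with 31.8 at yars-2 and none at yars-1. Aspartate (dars-2, dars-1) and isoleucine (iars-2, iars-1) had no pooled region at either gene. As at yars-1, summits lay in another gene for fars-2 (chk-2), rars-2 (C29H12.2) and nars-2 (tin-10). The regions of nars-1 and rars-1 lay nearer to the 5' ends of nduf-6 and rpb-8.

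**Figure D3:**
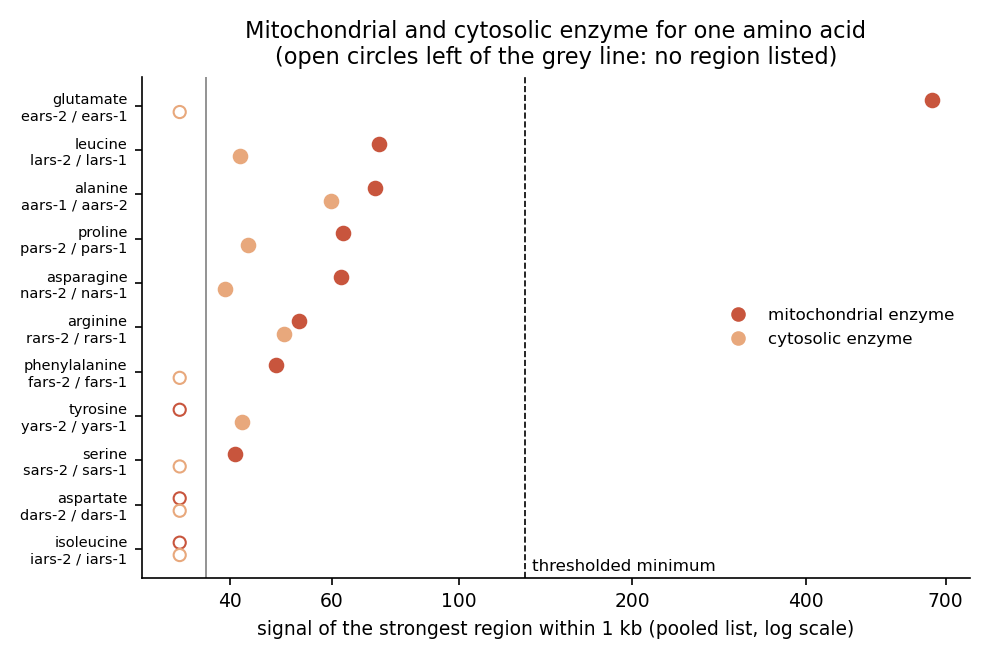
Pooled signal (log scale) of the strongest region at the mitochondrial and the cytosolic enzyme of each of 11 amino acids; open circles left of the grey line have no listed region, and the dashed line is the thresholded minimum. The mitochondrial gene has the larger signal in 8 pairs, and apart from ears-2 all values lie below 100.

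Over all synthetases, 8 of 11 mitochondrial enzymes had a region with a median signal of 62.6, and 13 of 20 cytosolic enzymes with a median of 47.5. Each class had 1 thresholded peak. The order of the medians turned round when each gene was given the 5' end of the first gene of its run (below), to 55.7 for mitochondrial and 62.5 for cytosolic enzymes. It also turned in replicate 2, with medians of 22.8 and 23.8, against 38.6 and 35.1 in replicate 1. Mitochondrial enzymes lay behind a same-strand neighbour in 6 of 11 cases and cytosolic enzymes in 4 of 20. Compartments were read from the RefSeq product name for 4 mitochondrial and 10 cytosolic enzymes and from the number in the symbol for the others. The only valine enzyme in the set, vars-1, counted as cytosolic by its number alone. The valine enzyme glp-4, the mitochondrial methionine enzyme mars-2 (Y105E8A.20 in Ensembl) and the phenylalanine beta subunit gene fars-3 have symbols outside the rule. The pooled signal was 78.8 at glp-4 and 81.2 at fars-3. No pooled region lay within 1 kb of the 5' end of mars-2, although the summit counted for yars-1 lay in an intron of mars-2.

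Many C. elegans genes sit in runs that are transcribed together, so a gene's own 5' end need not be where transcription starts. Annotation of operons was not used. A member counted as behind a neighbour if an upstream protein-coding gene on its strand ended within 500 bp or overlapped its start. That held for 40 of 101 members (39.6%), against 20.9% of all protein-coding genes. Members at the head of a run, or alone, had a pooled region in 51 of 61 cases (83.6%) with a median of 62.9. Those behind a neighbour had one in 24 of 40 cases with a median of 51.8. All 4 thresholded members were in the first class (6.56% of 61), and over all protein-coding genes the thresholded shares were 2.51% and 1.73%. A pooled region lay near 43.9% and 45.4% of all protein-coding genes in the 2 classes, with medians of 57.3 and 54.4. For ribosomal proteins alone, 36 of 40 genes at the head of a run or alone had a region (90.0%), and 18 of 30 behind a neighbour.

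A divergent gene, on the other strand with its 5' end within 1 kb, was present at 37 members (36.6%), against 17.7% of all protein-coding genes. The median pooled signal was 71.1 in members with such a neighbour and 54.2 in those without. Over all protein-coding genes it was 62.3 and 55.6, so the level differed in the same direction there. By family the medians were 71.1 and 55.0 in ribosomal proteins, but only 56.0 and 52.6 in synthetases. The families also differed in how many genes had a pooled region. Ribosomal proteins had one in 23 of 26 genes with a divergent neighbour and 31 of 44 without. Synthetases ran the other way, with 6 of 11 and 15 of 20. All 4 thresholded members had a divergent neighbour (10.8% of 37), and over all protein-coding genes the shares were 5.28% with one and 1.72% without. Some members' regions are as well those of the neighbour. Of 75 members with a region, 41 shared the 1 kb around the summit with the 5' end of another protein-coding gene, and for 19 another gene's 5' end was the nearest. The 75 genes had 73 distinct regions. mrps-2 and mrpl-4 shared 1 at a signal of 64.8 near the snoRNA gene T23B12.13, and mrpl-1 shared 1 with mrps-24.

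Summits lay upstream of the 5' end in 50 of the 75 members (66.7%), against 56.9% of all protein-coding genes with a region. They lay within 200 bp of it in 26 members (34.7%), against 28.0%. Gene parts were read from the annotation of protein-coding genes alone, once per member, so a shared summit counts for each of its members. In that count 33 summits were between genes, 21 in coding exons and 12 in introns, of the member or of another gene. Another 6 were in 3' untranslated and 3 in 5' untranslated parts. By the same annotation the thresholded summits of ears-2, mrpl-39 and mrps-34 were intergenic, and that of tars-1 was intronic.

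**Figure D4:**
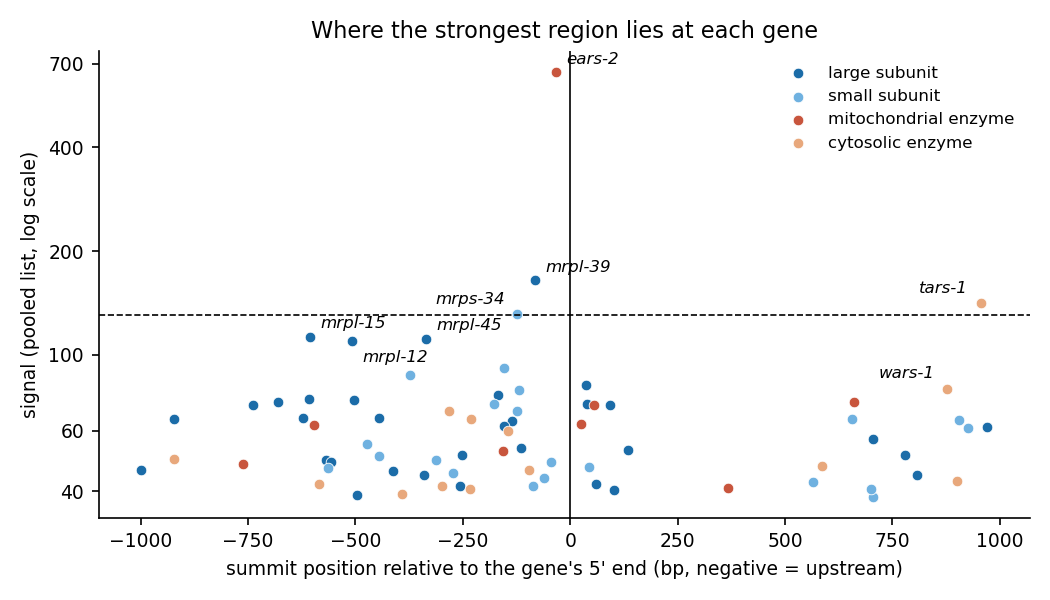
Position of the summit of the strongest pooled region relative to the gene's 5' end (bp, negative is upstream) against its signal (log scale) for the 75 members with a region; the dashed line is the thresholded minimum of 130. The regions of ears-2, mrpl-39 and mrps-34 lie within 200 bp upstream, and that of tars-1 lies 955 bp downstream.

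Sequence within 50 bp of the summit was scored for 9 motifs on either strand. Several of the 9 were known from an earlier account of these data, so their shares in these lists are not independent support. They were the SOX core ACAATG and its close variant ACAAAG, the GATA-type letters TGATAA with the related string AGATAA, the E-box CACGTG, the repeat GAGAGA, the letters GTTCGA of the tRNA B box, the GC box GGGCGG and the string CGCACA. The motif ACAATG was in 1 of the 73 member regions (1.37%), against 5.20% of 10556 pooled regions near a protein-coding 5' end. ACAAAG was in 5 (6.85%), against 4.70%. CGCACA and GGGCGG were each in 5 (6.85%), against 4.57% and 4.87% of pooled regions. Both were more frequent in the 359 thresholded peaks near a protein-coding 5' end, at 18.4% and 13.1%. In those peaks ACAATG was in 3.34% and ACAAAG in 1.95%, both less often than in pooled regions. Of the other motifs, GAGAGA was in 2 member regions (2.74%), against 9.64% of pooled regions, and AGATAA in 6 (8.22%), against 4.35%. TGATAA was in 2 (2.74%), against 5.83%, CACGTG in 1 (1.37%), against 2.21%, and GTTCGA in 3 (4.11%), against 3.95%. Of the thresholded members, mrpl-39 held CGCACA, mrps-34 held GGGCGG, and ears-2 and tars-1 held none of the 9. A match is a run of letters and not a shown binding site, and its absence says only that the letters are not in this window.

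The 3 strings in capitals above were chosen on the strongest members, so their frequency in members cannot be read as support. GCGC was in 20 of 73 member regions (27.4%), against 22.6% of pooled regions near a 5' end. TTGCNA was in 20 (27.4%), against 17.7%, and TGCAAG in 14 (19.2%), against 4.66%. Each was in 3 of the 4 thresholded members. In the 359 thresholded peaks GCGC was in 56.0%, TTGCNA in 28.1% and TGCAAG in 13.6%. Mean GC content within 50 bp was 39.3% ± 9.63 in the 73 member regions (SD over regions), against 50.1% ± 7.55 in the 359 thresholded peaks and 42.2% ± 9.50 in pooled regions. Members thus had a lower mean GC content than pooled regions. By family it was 40.6% ± 9.15 in 52 ribosomal protein regions and 36.2% ± 10.3 in 21 synthetase regions, so synthetases lay further below. At ears-2 GC content was 58.4% and at tars-1 37.6%, and its part in these counts was not tested.

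Other genes of translation and of mitochondria were read in the same way, in lists chosen with earlier results of these data known. Mitochondrial translation factors matched 5 genes by 11 listed names, of which 3 had a region and none a thresholded peak, led by the elongation factor genes tufm-1 (61.6) and gfm-1 (47.9). Mitochondrial gene expression matched 6 genes with 1 thresholded peak, at mma-1 with 216 near the snoRNA gene C14C10.8, and the mitochondrial DNA polymerase gene polg-1 had 99.7. Import genes had 2 thresholded peaks in 13, at tomm-20 (139) and timm-17B.1 (133). Respiratory chain and ATP synthase genes had 6 in 60, with ndua-2 at 436 and nuo-2 at 218 the strongest. The region at ndua-2 lay nearer to dnj-29.

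For the cytosol, ribosomal proteins had a thresholded peak in 15 of 78 genes (19.2%), with rpl-3 at 536 and rpl-15 at 347 the strongest. Their median pooled signal was 76.6. Cytosolic translation factors had 3 in 31 (9.68%), with eif-3.C at 368 and eef-1A.1 at 156 the strongest. The 2.86% of mitochondrial ribosomal proteins stands near the 2.35% of all protein-coding genes. In the lists of 6 and 13 genes, 1 gene is 16.7% and 7.69%, so their shares of 16.7% and 15.4% cannot be ordered against the 19.2% of cytosolic ribosomal proteins.

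**Figure D5:**
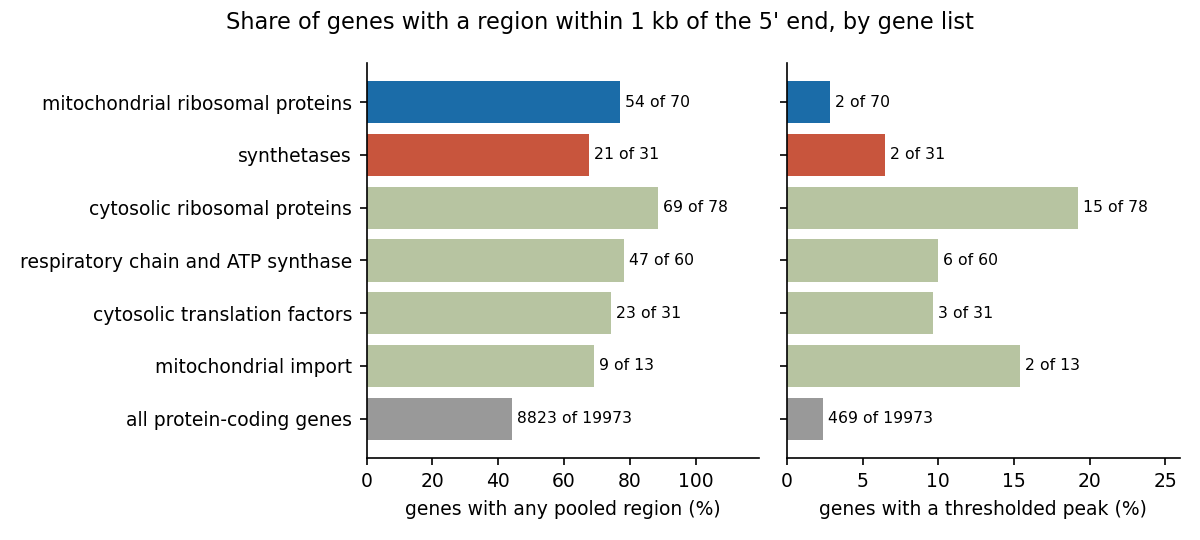
Percent of genes with any pooled region (left) and with a thresholded peak (right) within 1 kb of the 5' end, by gene list, with counts beside the bars. Mitochondrial ribosomal proteins have a thresholded peak at 2 of 70 genes and synthetases at 2 of 31, against 15 of 78 cytosolic ribosomal proteins and 469 of 19973 protein-coding genes.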

How the data were processed

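Per the labels and file headers, the authors called regions against a control alignment on each of 2 replicates and on both pooled, and made a thresholded list by the irreproducible discovery rate. Lists on ce11 in narrowPeak format were used, and ce10 lists were not used here. The deposited signal value of each region was used only to rank or describe regions within a list. No source used here names the aligner, the caller, their versions or the threshold.

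Strongest regions within 1000 bp of 5' ends (Ensembl release 115) were found with Python 3.11.15, numpy 2.4.6 and pandas 2.3.3. scipy 1.17.1 gave rank correlations and matplotlib 3.10.9 the plots. On simulated data 200 of 200 genes were recovered. Named were every thresholded member, the 12 strongest of each family, the 3 nearest below the threshold, the paired enzymes, unlisted members up to 10 (of 15, the 6 synthetases and mrps-5) and the 2 strongest of each related list. mrpl-23, mrps-28, genes sharing a region and the 8 strings were chosen after values were seen. Members and lists were chosen with earlier results of these data known. Alternatives changed the window, side, ranking, threshold, replicate and 5' end.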

Additional observations from a re-analysis of the deposited data

How the results depend on the processing

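Of 84 alternative values for 8 results, 62 stayed close to the reported value. For a median, close meant a shift below the SD between the replicates' medians, which was 7.87 to 11.2. That SD also holds the difference in scale between the replicates' lists. A count could be called close after moving from 2 to 3, so the tally is a loose description. Ribosomal proteins with a thresholded peak, 2 in the report, numbered 5 with a window of 2000 bp, 0 among the strongest 334 thresholded regions, and 4 with the 5' end of the first gene of the run, an alternative chosen after seeing the data. The genes gained with 2000 bp, mrpl-23, mrps-28 and mrps-6, lay near snoRNA genes. The run's first gene added mrpl-32 (through rpn-3) and mrps-14 (through nrde-2). Synthetases, 2 in the report, numbered 3 with 2000 bp (fars-1 added, near a snoRNA gene), 1 within 500 bp, 1 upstream only and 1 among the strongest 334, which is ears-2 in each of the last 3. Cytosolic enzymes, 1 in the report, numbered 0 within 500 bp, upstream only and among the strongest 334, and 2 with 2000 bp. All protein-coding genes gave 3.58% with 2000 bp, 1.65% within 500 bp, 2.02% upstream only, 2.96% with the run's first gene and 1.27% among the strongest 334.

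Using 1 replicate's strongest 668 regions, the counts were 2 to 5 for ribosomal proteins, 1 to 2 for synthetases and 0 to 1 for cytosolic enzymes. The 5 were in replicate 2, with mrps-28 among them, and mrpl-23 was among the 2 in replicate 1. Medians from 1 replicate come from lists on other scales: 27.2 to 38.3 for ribosomal proteins, 23.1 to 36.0 for synthetases, 22.8 to 38.6 for mitochondrial and 23.8 to 35.1 for cytosolic enzymes. The cytosolic median was 62.5 with the run's first gene. No paired analysis was possible because there is only 1 group. Without read counts, precision per region is unknown.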
